A study of Sus scrofa with 6 samples.

Results

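The transcripts described here are those of 10 pig genes of the DNA damage checkpoint and of double-strand break repair: ATM, CHEK1, CHEK2, BRCA1, RAD50, MRE11, XRCC5, XRCC6, RPA1 and RPA2. They were chosen by gene symbol, and all probe sets that the array annotation assigns to them were taken, which gave 11 of the 23999 probe sets that are not controls. CHEK1 has 2 probe sets and each of the other 9 genes has 1. All 11 were bright enough on average to enter the tests. The arrays came from pig embryos made by nuclear transfer, in which the nucleus of a cultured cell is placed in an oocyte, in a study of DJ-1, the PARK7 product, which responds to oxidative stress. Embryos injected with an antibody against DJ-1 gave 2 arrays (anti-DJ1), embryos injected with IgG gave 2 arrays (IgG), embryos with no injection gave 1 array (non-injected), and the donor cells themselves, cultured fibroblasts established from an adult Meishan pig, gave 1 array. All embryo groups were built from slaughterhouse oocytes and that same donor culture, were grown for 28 h after transfer, when many had just reached the 2-cell stage, and were pooled at 23 to 26 embryos per array. Each of the 4 groups has an array in trial 1, while trial 2 added another anti-DJ1 array and another IgG array from separate samples. An antibody acts on the protein, so no transcript here checks the block, and all donor nuclei come from 1 culture.

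A double-strand break is recognised by the MRN complex, of which MRE11 (a nuclease) and RAD50 (an ATPase that bridges DNA ends) are subunits, and MRN activates the kinase ATM, which in turn activates the checkpoint kinase CHEK2. Single-stranded DNA is coated by replication protein A, whose subunits include RPA1 and RPA2, and this leads through the kinase ATR to the checkpoint kinase CHEK1, which holds the cell cycle while replication is stalled. Breaks are then joined directly by end joining, which starts when the Ku heterodimer of XRCC5 (Ku80) and XRCC6 (Ku70) binds the ends, or copied from a sister chromatid by homologous recombination, in which BRCA1 acts early. In embryos before their genome is switched on, much of the messenger RNA is inherited from the oocyte, and the first cleavages run on that store.

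The 6 arrays share a common scale, with a mean of about 500 after the lowest and highest 2% of probe sets were left out, and the highest of the Tag controls, which match no pig transcript, ranged from 21.4 to 47.0 and serves as the level below which a signal is called within the Tag controls. Control probe sets separate the trials. EF1A, whose 3′ to 5′ ratio grows as labelled RNA shortens, had a ratio of 8.20 to 9.34 in trial 2, against 23.9 to 30.0 on the embryo arrays of trial 1 and 4.23 on the donor cell array, and the poly-A control transcripts had a median signal of 219 to 293 in trial 2 and of 3.60 to 6.71 in trial 1. The labels were checked with marker genes. The 9 oocyte and early embryo markers on the array summed to signals of 84338 to 136012 in embryos and 221 in donor cells, where 6 of them were within the Tag controls. The 10 fibroblast markers summed to 1615 to 2023 in embryos and 66079 in donor cells, where VIM (31965) and FN1 (24455) made up most of the sum. LUM, DCN and POSTN were within the Tag controls in donor cells. DCN went the other way from the sum, with signals of 54.7 to 111 in embryos and 5.58 in donor cells. The 10 cumulus and granulosa cell markers summed to 1305 to 1847 in embryos and 958 in donor cells. INHBA made up most of the sum, with 975 to 1495 in embryos and 739 in donor cells. INHA had 40.3 to 226 in embryos and 51.2 in donor cells. From 2 to 4 of the 10 were above the Tag controls on each embryo array, and 3 in donor cells. FSHR, AMH, CYP11A1, STAR, PTX3 and TNFAIP6 were within the Tag controls on all 5 embryo arrays.

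The checkpoint kinase CHEK1 had far higher signals on every embryo array than on the donor cell array. Its brighter probe set had signals of 8025 (trial 2) and 9299 (trial 1) in anti-DJ1 embryos, 4962 and 7273 in IgG embryos, 8780 on the non-injected array and 156 on the donor cell array. Its dimmer probe set had 1207 and 683 in anti-DJ1 embryos, 1357 and 742 in IgG embryos, 577 on the non-injected array and 11.2 on the donor cell array, where it lay within the Tag controls. Both probe sets placed all 5 embryo arrays far above the donor cell array, but they did not order the embryo arrays alike: the arrays of trial 2 were the lower ones of their group by the brighter probe set and the higher ones by the dimmer.

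The other kinases were above the Tag controls on all 6 arrays. ATM had signals of 599 (trial 2) and 975 (trial 1) in anti-DJ1 embryos, 605 and 1037 in IgG embryos, 957 on the non-injected array and 1343 on the donor cell array. CHEK2, the target of ATM, had 183 and 126 in anti-DJ1 embryos, 125 and 171 in IgG embryos, 117 on the non-injected array and 169 on the donor cell array. ATM was highest in donor cells, and for CHEK2 the donor cell array lay inside the range of the embryo arrays, the 1 member for which this was so.

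BRCA1 had signals of 769 (trial 2) and 639 (trial 1) in anti-DJ1 embryos, 729 and 593 in IgG embryos, 419 on the non-injected array and 15.1 on the donor cell array, within the Tag controls. The MRN subunits differed in where they were high. MRE11 had 612 and 651 in anti-DJ1 embryos, 514 and 760 in IgG embryos, 489 on the non-injected array and 235 on the donor cell array. RAD50 had 989 and 762 in anti-DJ1 embryos, 1018 and 731 in IgG embryos, 565 on the non-injected array and 1835 on the donor cell array. MRE11 was therefore lowest in donor cells and RAD50 highest there, while for BRCA1, MRE11 and RAD50 the non-injected array was the lowest of the 5 embryo arrays.

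The Ku subunits showed the same split. XRCC6 had signals of 2728 (trial 2) and 1363 (trial 1) in anti-DJ1 embryos, 3042 and 1249 in IgG embryos, 1399 on the non-injected array and 320 on the donor cell array. XRCC5 had 570 and 396 in anti-DJ1 embryos, 613 and 485 in IgG embryos, 384 on the non-injected array and 1562 on the donor cell array. All embryo arrays lay above the donor cell array for XRCC6 and below it for XRCC5. The subunits of replication protein A were both lowest in donor cells: RPA1 had 5325 and 5480 in anti-DJ1 embryos, 5158 and 4542 in IgG embryos, 5253 on the non-injected array and 2285 on the donor cell array. RPA2 had 1962 and 1750 in anti-DJ1 embryos, 1693 and 1971 in IgG embryos, 1971 on the non-injected array and 542 on the donor cell array. For RPA1 both anti-DJ1 arrays lay above both IgG arrays, with the non-injected array below the anti-DJ1 arrays and above the IgG arrays. Within trials, the log2 difference of RPA1 between anti-DJ1 and IgG was 0.27 in trial 1 and 0.05 in trial 2. The share of all probe sets whose anti-DJ1 and IgG arrays do not overlap was not counted. For RPA2 the anti-DJ1 and IgG arrays overlapped.

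**Figure D1:**
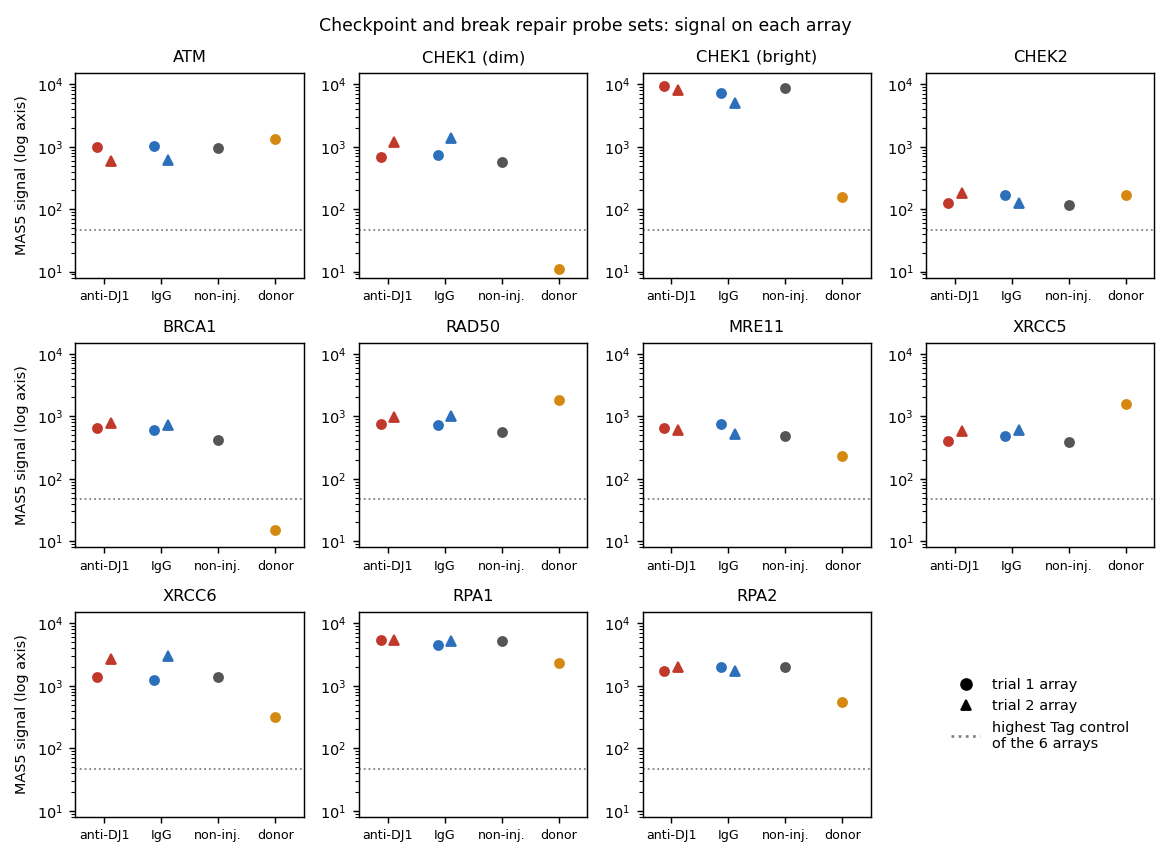
MAS5 signal (log axis) of each of the 11 probe sets on the 6 arrays, by group from left to right: anti-DJ1, IgG and non-injected embryos and donor cells, with circles for trial 1, triangles for trial 2 and a dotted line at 47.0, the highest Tag control of any array. The donor cell array stands far below the embryos for CHEK1 and BRCA1, above them for ATM, RAD50 and XRCC5, and among them for CHEK2.

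Anti-DJ1 embryos are set against IgG embryos to ask what blocking DJ-1 does to these transcripts, and no member passed the test. In limma, over 14399 probe sets, 0 of the 11 passed an adjusted p of 0.05 and 0 probe sets passed in all (a background of 0%), while 1 of 11 members and 838 probe sets (5.82%) had an unadjusted p under 0.05. The 1 member was the brighter CHEK1 probe set, which averaged 8662 ± 901 in anti-DJ1 and 6117 ± 1635 in IgG embryos (SD, n = 2 each). Its log2 change was 0.52 ± 0.12 (SE, limma, 95% confidence interval 0.26 to 0.79, adjusted p = 0.753), and it was 0.69 within trial 2 and 0.35 within trial 1. The 2 anti-DJ1 arrays lay above both IgG arrays, though the share of all probe sets without such overlap was not counted. The non-injected signal of 8780 lay between the anti-DJ1 arrays. The dimmer CHEK1 probe set stood at -0.14 ± 0.17 (95% interval -0.52 to 0.24, limma adjusted p = 0.966), on the lower side in both trials. The difference between the probe sets was not tested. When only the upper 40% of probe sets were tested, the brighter CHEK1 probe set passed (adjusted p = 0.0112), whereas the adjusted p was 0.197 to 0.99998 under the other alternatives.

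The remaining members lay near 0. RPA1 stood at 0.16 ± 0.11 (SE), XRCC5 at -0.20 ± 0.16, BRCA1 at 0.09 ± 0.19 and ATM at -0.05 ± 0.14. RAD50 (0.0092), MRE11 (0.0138), XRCC6 (-0.0157), RPA2 (0.0206) and CHEK2 (0.0495) averaged close to 0 with trials that went opposite ways: CHEK2 was at 0.53 in trial 2 and -0.43 in trial 1, MRE11 at 0.25 and -0.22, RPA2 at 0.21 and -0.17, XRCC6 at -0.16 and 0.13, and RAD50 at -0.04 and 0.06. Thus 6 of 11 members moved the same way in both trials, beside 51.3% of all tested probe sets. The median log2 change was 0.01 over the members and -0.0054 over all probe sets, and no member differed 2-fold in either trial, which 9.54% of probe sets did. The 95% intervals ran from -0.32 to 0.29 for XRCC6 and from -0.29 to 0.33 for RPA2, but from -0.60 to 0.70 for CHEK2. They are unadjusted and rest mostly on a spread shared across probe sets, so they bound what was missed only under that model.

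**Figure D2:**
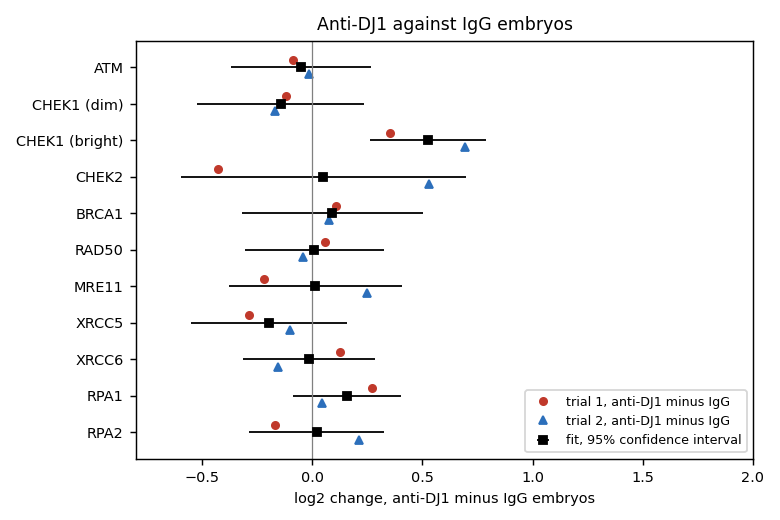
Log2 change of each member, anti-DJ1 minus IgG embryos (x axis), as the limma estimate with its 95% confidence interval (squares and bars) and within trial 1 (circles) and trial 2 (triangles). The interval of the brighter CHEK1 probe set, 0.26 to 0.79, is the 1 that does not include 0, and CHEK2, MRE11, RPA2, XRCC6 and RAD50 have their trials on opposite sides of 0.

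Against non-injected embryos, which show what injection itself goes with, 0 of 11 members passed for anti-DJ1 embryos, where 276 probe sets did (1.92%), and 0 of 11 for IgG embryos, where 182 did (1.26%). At an unadjusted p under 0.05, limma had 2 members for anti-DJ1 embryos, BRCA1 and MRE11, both higher (beside 18.5% of probe sets). For IgG embryos it had 1, the brighter CHEK1 probe set, which was lower (beside 17.3%). These comparisons share the single non-injected array. BRCA1 stood at 0.59 ± 0.25 in anti-DJ1 (SE, limma, adjusted p = 0.225) and 0.50 ± 0.25 in IgG embryos (0.327). MRE11 was at 0.53 ± 0.24 (0.263) and 0.51 ± 0.24 (0.297), and RAD50 at 0.40 ± 0.19 (0.286) and 0.39 ± 0.19 (0.317). Within trial 1 alone, the changes of BRCA1 were 0.60 for anti-DJ1 and 0.50 for IgG embryos, and those of MRE11 were 0.41 and 0.63. For 6 of 11 members (BRCA1, MRE11, RAD50, XRCC5, CHEK2 and the dimmer CHEK1 probe set) all 4 injected arrays lay above the non-injected array, beside 26.3% of probe sets, and for 0 of 11 all lay below it, beside 19.9%. These counts set injected arrays of both trials against the non-injected array of trial 1, so they mix trial with injection. The brighter CHEK1 probe set differed in side: 0.17 ± 0.16 for anti-DJ1 embryos (adjusted p = 0.633) and -0.36 ± 0.16 for IgG embryos (0.277). The remaining members, ATM, RPA1, RPA2 and XRCC6, lay between -0.15 and 0.10 in both comparisons. The EF1A 3′ to 5′ ratio in trial 1 was 24.2 for anti-DJ1, 23.9 for IgG and 30.0 for non-injected embryos, and its part in these values was not tested.

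Embryos and donor cells differed at most members, as at most probe sets. In limma 10 of 11 members passed, 7 higher and 3 lower in embryos, and over all probe sets 72.9% passed, 36.4% higher and 36.5% lower. Of all calls 5248 were higher and 5253 lower, against 6706 and 3911 when arrays were scaled to a common 75th percentile. The median log2 change was 1.39 over the members and -0.02 over all tested probe sets. The single donor cell array is assumed to vary like the replicated groups, and signals are relative to the rest of each array, so that fewer cells holding a transcript and less of it per cell cannot be told apart. The summed oocyte markers (84338 to 136012 in embryos, 221 in donor cells) and fibroblast markers (1615 to 2023 and 66079) moved with this comparison. The EF1A 3′ to 5′ ratio moved too, from 4.23 in donor cells to 23.9 to 30.0 on the trial 1 embryo arrays. The part of the markers and of this ratio in the members' values was not tested.

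CHEK1 and BRCA1 were far higher in embryos. The brighter CHEK1 probe set was higher in embryos by 5.71 ± 0.14 on the log2 scale (SE, limma, adjusted p = 4.42e-12), which is 52.4-fold. Donor cells were within the Tag controls for the dimmer CHEK1 probe set and for BRCA1. Their folds are therefore lower bounds against that array's highest Tag control, averaged over the embryo groups of both trials. They were at least 20.9-fold for CHEK1 and at least 15.0-fold for BRCA1. Signals of both were higher in trial 2, so bounds from the trial 1 arrays alone would be lower. The fitted changes, not the bounds, had adjusted p = 1.80e-10 and 1.02e-09 in limma. The CHEK1 probe sets, which disagreed among embryos, both put this gene higher in embryos.

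Partners within a complex parted. XRCC6 was higher in embryos by 2.05 ± 0.16 (4.13-fold, adjusted p = 1.55e-07), while its partner XRCC5 fell by 1.89 ± 0.19 (3.69-fold lower, 1.56e-06). MRE11 was higher by 1.39 ± 0.21 (2.62-fold, 6.08e-05), while RAD50 fell by 1.43 ± 0.17 (2.69-fold lower, 6.72e-06). The replication protein A subunits went together, RPA2 higher by 1.80 ± 0.16 (3.47-fold, 6.25e-07) and RPA1 by 1.15 ± 0.13 (2.22-fold, 4.97e-06). The donor cell array lay outside the range of the 5 embryo arrays for 10 of 11 members, beside 80.3% of probe sets, and below all of them for 7, beside 40.9%.

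ATM was lower in embryos by a small margin, -0.44 ± 0.17 (1.36-fold, adjusted p = 0.0322), and CHEK2 did not pass (-0.30 ± 0.34, adjusted p = 0.442). The ATM call rests on the settings: it did not pass with the trial 1 arrays alone and embryos taken as 1 group (adjusted p = 0.0746), without the block for trial (0.248), without the mean-variance trend (0.123), under quantile normalization (-0.26, 0.164), or with any 1 injected array left out (0.140 to 0.374). With a common 75th percentile ATM turned to 0.19 and CHEK2 to 0.31, and under quantile normalization CHEK2 turned to 0.45. Those scalings put the median of all probe sets at 0.59 (75th percentile) and 0.42 (quantile), so relative to that median both genes stayed on the lower side, except CHEK2 under quantile normalization. With trial 1 alone, added after seeing the data, the other 9 calls held. That fit gave the same changes as the main one (median over the members 1.39 in both). It could alter only their SE and adjusted p, so it is no separate check of the changes. RAD50 (0.0529) and MRE11 (0.0582) did not pass without anti-DJ1 replicate 1, in a fit without the block.

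**Figure D3:**
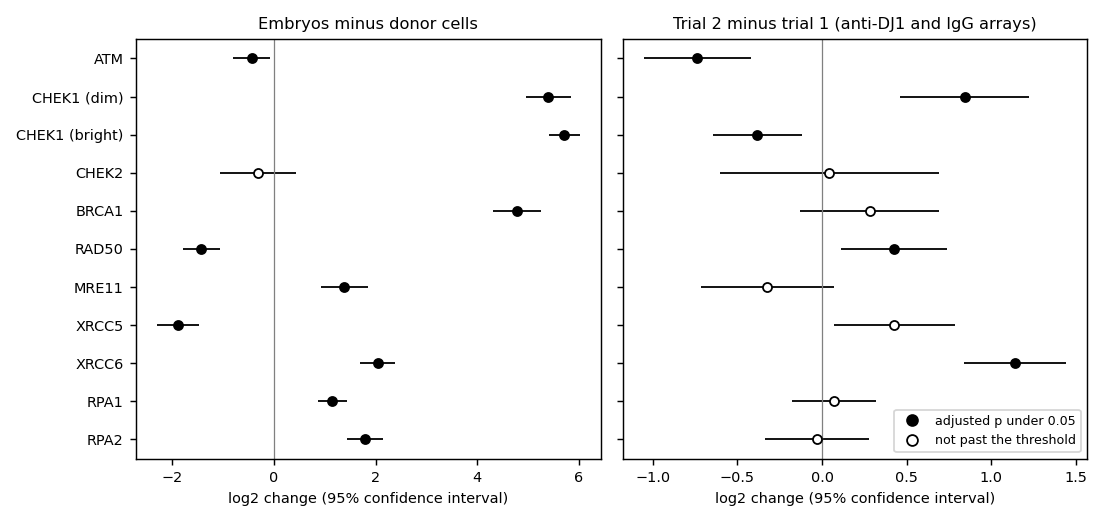
Log2 change with its 95% confidence interval for each member, embryos minus donor cells (left) and trial 2 minus trial 1 over the anti-DJ1 and IgG arrays (right), with filled circles for an adjusted p under 0.05 in limma. The brighter CHEK1 probe set lies at 5.71 on the left. The points of the dimmer CHEK1 probe set and of BRCA1 are fitted values against a donor signal within the Tag controls. Their folds are given only as lower bounds, 20.9 and 15.0 when averaged over the embryo groups of both trials. XRCC5 and RAD50 lie below -1, and the CHEK1 probe sets lie on opposite sides of 0 on the right.

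More members passed between trials than between injections. Between trial 2 and trial 1, over the anti-DJ1 and IgG arrays, 5 of 11 members passed in limma, 3 higher and 2 lower in trial 2, beside 32.3% of all probe sets (18.9% higher, 13.4% lower). The median log2 change was 0.07 over the members and 0.14 over all probe sets, and the median of all became -0.0040 under quantile normalization and -0.09 with a common 75th percentile. Calls over all probe sets split into 2728 higher and 1923 lower, against 1957 and 2186 under quantile normalization and 1657 and 3203 with the 75th percentile. XRCC6 was higher in trial 2 by 1.14 ± 0.14 (SE, adjusted p = 0.000124), with 0.998 in anti-DJ1 and 1.28 in IgG embryos. The dimmer CHEK1 probe set was higher by 0.84 ± 0.17 (0.0033), and RAD50 by 0.43 ± 0.14 (0.041). ATM fell by 0.74 ± 0.14 (0.00252), with -0.70 in anti-DJ1 and -0.77 in IgG embryos, and the brighter CHEK1 probe set fell by 0.38 ± 0.12 (0.0296). For 7 of 11 members the trial 2 arrays did not overlap those of trial 1, beside 66.6% of probe sets. The calls for RAD50 and the brighter CHEK1 probe set did not pass under quantile normalization (adjusted p = 0.217 and 0.475). With the 75th percentile RAD50 did not pass either (0.383) while MRE11 did, at -0.57 (0.0233). XRCC5 (0.43, 0.0643) passed with the upper 40% of probe sets tested (0.0376), and 0 of 11 passed without the mean-variance trend. EF1A ratios of 8.20 and 9.34 in trial 2 against 24.2 and 23.9 in trial 1 and the poly-A controls moved with the trial, and what they, the preparation and the embryos each contribute cannot be told apart.

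Other genes of the DNA damage response were taken from 5 lists. Of 102 listed genes, 33 had a probe set with a single symbol and 31 of these were tested, 1 probe set per gene. Between anti-DJ1 and IgG embryos 0 of 31 passed in limma, with a median log2 change of -0.04 against -0.0054 over all probe sets. The genes with the smallest unadjusted p were ATRIP, the partner of the kinase ATR, at -0.72 ± 0.41 (SE, adjusted p = 0.903; its second probe set 1.08), and WEE1, an inhibitory kinase of mitotic entry (0.911). WEE1 had signals of 32.6 and 32.7 in anti-DJ1 embryos, both within the Tag controls, and 39.3 (within them) and 72.9 in IgG embryos, so no size is given. In the remaining lists they were UIMC1 (-0.26) and BRCC3 (-0.20), members of a BRCA1 complex, the end-joining factor XRCC4 (-0.14), the Fanconi genes FANCG (-0.27) and FANCF (0.11), the ligase LIG3 (-0.23) and the polymerase POLB (0.32).

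XRCC4, the scaffold for the ligase that seals joined ends and the 1 tested gene of the end-joining list besides Ku, was the 1 of 31 tested genes of these lists to pass against non-injected embryos, beside 1.92% of all probe sets for anti-DJ1 and 1.26% for IgG embryos. It had signals of 2420 (trial 2) and 3223 (trial 1) in anti-DJ1 embryos, 2583 and 3667 in IgG embryos, 1887 on the non-injected array and 206 on the donor cell array. It rose by 0.79 ± 0.17 in anti-DJ1 embryos (SE, limma, adjusted p = 0.0385) and by 0.93 ± 0.17 in IgG embryos (0.0292). Its 4 injected arrays were all above the single non-injected one. Neither call held without the block for trial (0.996 and 0.994), without the mean-variance trend (0.347 and 0.335) or with any 1 injected array left out in a fit without the block (0.998 to 0.99989 and 0.871 to 0.99986), and the first did not hold without a filter on low values (0.0733) or with the filter on the arithmetic mean signal (0.0524).

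Between embryos and donor cells, 28 of the 31 pathway genes passed, 21 higher and 7 lower in embryos, beside 72.9% of all probe sets (36.4% higher and 36.5% lower), with a median log2 change of 1.22 against -0.02 over all probe sets. The counts by list that follow stand against those same shares. Each gene is represented by its probe set of highest mean over the 6 arrays, of which 5 are from embryos. That choice favours signals high in embryos, and the shares over all probe sets involve no such choice. The filter on the mean favours them too, and POLL and APTX, above the Tag controls in donor cells alone, were not tested. The split and the median therefore give no direction for the pathway by themselves. In the checkpoint list, 5 of 8 tested genes were higher and 1 lower. The clamp subunits RAD1 and HUS1, which sit on DNA beside stalled forks, were higher by 5.90 ± 0.13 and 4.33 ± 0.16 (SE, limma, adjusted p = 2.06e-12 and 1.65e-10), and TIPIN, of the replication fork protection complex, by 2.31 ± 0.13 (9.88e-09). CLSPN, the adaptor through which ATR activates CHEK1, was within the Tag controls in donor cells. It was at least 16.9-fold higher in embryos of both trials on average (6.05e-10 for the fitted change). The second probe set of ATRIP passed as lower (-1.31, 0.0257), but the one counted did not (-0.78, 0.155). By the probe sets counted, WEE1 was the 1 lower gene (6.46e-07), with signals of 32.6 to 72.9 in embryos and 1482 in donor cells. As 2 of its 5 embryo arrays lay above their Tag controls and the others within them, the fitted log2 change of -4.80 is set largely against background and is not a measured size.

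In homologous recombination 2 of 4 tested genes were higher and 2 lower, an even split like that over all probe sets (36.4% and 36.5%). RPA3, the small subunit of replication protein A, was higher by 1.80 ± 0.13 (SE, limma, adjusted p = 7.37e-08) and so lay on the side of RPA1 and RPA2, and the strand-exchange helper RAD54L was higher by 2.17 ± 0.23 (2.48e-06; its second probe set 0.51, 0.508). UIMC1 fell by 1.33 ± 0.26 (0.00048) and BRCC3 by 1.19 ± 0.31 (0.00385), and neither passed under quantile normalization or without the block. BRCC3 did not pass with a common 75th percentile either (0.115). With any 1 injected array left out, UIMC1 ranged from -1.17 to -0.72 and BRCC3 from -1.23 to -1.08. These are sizes alone, from fits without the block, and do not show that either call held. XRCC4 was higher by 3.74 ± 0.15 (2.67e-10). The other end-joining genes on the array, POLL and APTX, were too dim to be tested: POLL had 7.01 to 23.3 in embryos and 42.9 in donor cells, and APTX 2.75 to 9.95 and 48.6. Both were above the Tag controls in donor cells and within them on all embryo arrays.

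In the Fanconi anaemia list, whose products repair DNA crosslinks, 5 of 6 genes were higher and 0 lower, beside 36.4% and 36.5% of all probe sets. FANCL, the ubiquitin ligase of the pathway, was higher by 6.21 ± 0.12 (SE, limma, adjusted p = 5.49e-13), FANCF by 2.89 ± 0.14 (2.02e-09), FANCD2, which FANCL helps to modify, by 2.60 ± 0.20 (1.45e-07) and the conjugating enzyme UBE2T by 1.53 ± 0.17 (5.46e-06). In excision and mismatch repair 8 of 12 were higher and 4 lower, where 72.9% of all probe sets passed. DDB2, which recognises ultraviolet damage, was within the Tag controls in donor cells. Averaged over the embryo groups of both trials, DDB2 was at least 9.45-fold higher in embryos (3.80e-09 for the fitted change). Its signals were higher in trial 2, so the trial 1 arrays alone would give a lower bound. XPA, LIG3 and FEN1 were higher by 2.83, 1.63 and 1.69. The other LIG3 probe sets stood at 3.24, 0.15 and -0.96. APEX1, the endonuclease of base excision repair, fell by 2.03 ± 0.19 (1.02e-06), ERCC1 by 1.69 ± 0.33 (0.000504), ERCC8 by 0.83 ± 0.20 (0.00206) and XPC by 0.64 ± 0.22 (0.0208). ERCC8 and XPC did not pass under quantile normalization, a common 75th percentile, the fit without the block or trial 1 alone, and XPC turned to 0.04 under quantile normalization. With any 1 injected array left out, ERCC8 ranged from -0.99 to -0.87 and XPC from -0.59 to -0.45, which are sizes alone and do not show that either call held. ERCC1 did not pass without anti-DJ1 replicate 1 (0.0571) and stood at -0.94 under quantile normalization.

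**Figure D4:**
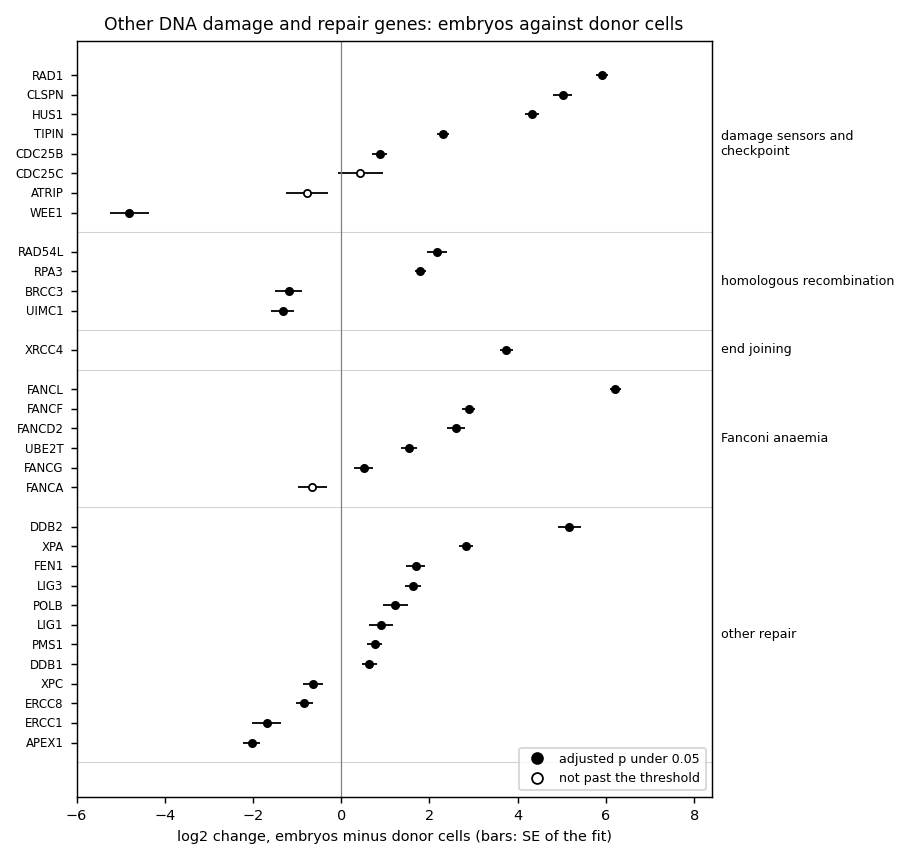
Log2 change, embryos minus donor cells (x axis, bars show the SE of the limma fit), of the 31 other DNA damage and repair genes by list, with filled circles for an adjusted p under 0.05. There are 21 filled points to the right of 0 and 7 to the left, among them FANCL at 6.21. The points of CLSPN and DDB2, with donor signals within the Tag controls, and of WEE1, with most embryo signals within them, show fitted values and not measured sizes.

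Between the trials, 11 of the 31 pathway genes passed, 7 higher and 4 lower in trial 2, beside the 32.3% of all probe sets. The higher ones were UIMC1 (1.16), RPA3 (0.36), FANCG (1.04), UBE2T (0.78), APEX1 (0.91), DDB2 (1.08) and LIG1 (0.84), and the lower ones were TIPIN (-0.72), XRCC4 (-0.46), FANCL (-0.69) and XPA (-0.79). None of these 11 passed without the mean-variance trend (adjusted p up to 0.225). FANCL did not pass under quantile normalization (-0.18, 0.183), RPA3 with a common 75th percentile (0.11, 0.514), and LIG1 under either (0.100 and 0.0785). The counts use 1 probe set per gene. By other probe sets, RAD54L (1.75, limma adjusted p = 0.0352) and LIG3 (1.71, 0.0272, and 1.40, 0.00232) also passed as higher in trial 2. Another LIG3 probe set (0.72, 0.170) and the second ones of ATRIP (0.09, 0.892) and CLSPN (0.41, 0.123) did not.

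The named transcripts whose pattern over the 6 arrays was nearest to each member were found by the root mean square distance between log2 values centred per probe set, among up to 6849 probe sets with a single symbol. For CHEK1 the brighter probe set alone was used, and the nearest to it was XIRP2 (0.19). The nearest to CHEK2 was PICALM (0.11), to ATM CHMP1B (0.06), to BRCA1 the meiotic gene HORMAD1 (0.08), to RAD50 WTAP (0.05) and to MRE11 SLC38A9 (0.09). For XRCC6 it was CDC42SE1 (0.03), for XRCC5 ARPP19 (0.08), for RPA1 UFD1 (0.07) and for RPA2 UBXN2B (0.05). HORMAD1, for example, had signals of 899 and 768 in anti-DJ1 embryos, 810 and 671 in IgG embryos, 545 on the non-injected array and 20.4 on the donor cell array, in the same order as BRCA1. The donor signals of BRCA1 and HORMAD1 both lay within the Tag controls, so their nearness on that array is nearness of background. XIRP2 (4.99) also lay within them there, while the brighter CHEK1 probe set (156) lay above them. For that pair a background value is set beside a measured one. Such nearness over 6 arrays describes levels that all share the arrays' scaling and the trial difference.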

How the data were processed

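RNA of 6 samples was hybridised to Affymetrix Porcine Genome arrays, from 50 ng of total RNA per sample labelled by a two-cycle method, as the labels state. Each deposited value is an intensity per probe set, linear, from MAS5 per the submitters' processing notes. MAS5's version and scaling target, and any detection call, are not given here. The table holds 24123 probe sets, of which 124 are controls. Of the other 23999, the platform annotation names 1 gene for 10069, several for 198 and none for 13732, and symbols were updated through Entrez IDs to those of RefSeq's Sscrofa11.1. No value column was left without a sample.

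The 10th percentile of all signals, 4.57, was added to each signal before log2, so changes of dim probe sets are understated. The upper 60% by mean log2 signal (14399 probe sets, means above 39.6) were tested with limma 3.58.1 in R 4.3.3, using lmFit, then eBayes fitted to the mean-variance trend. Group and trial entered the model, which used all 6 arrays. Tests were two-sided, and p-values had Benjamini-Hochberg adjustment over all probe sets tested. The fit has 1 residual degree of freedom and 10.7 prior ones. The design text gives each trial its own IgG control, so trial is a block. Arrays that share a trial deviated together (r = 0.588 between anti-DJ1 and IgG over 14399 probe sets, not independent of each other). Embryos against donor cells is the mean of the 3 embryo groups minus the donor cells. With trial as a block, its estimates equal those from the trial 1 arrays alone. The arrays of the other trial enter only its SE and p-values. Where donor cells lay within the Tag controls, a fold is a lower bound against that array's highest Tag signal, averaged over the embryo groups with no term for trial. With 6 arrays the precision is limited: the median 95% interval for anti-DJ1 against IgG embryos reached 1.42-fold to either side. The fit was tested on simulated data.

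Members, gene lists and tests were chosen with earlier results of these data known. All members were named. From each list came up to 4 genes per direction past the threshold by smallest p, otherwise the 2 with the smallest p for anti-DJ1 against IgG embryos, with the probe set of highest mean per gene. Filtering on the mean log2 signal, rather than on the arithmetic mean, was settled after calls from both had been seen, so that it matches earlier processing of these data.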

Additional observations from a re-analysis of the deposited data

How the results depend on the processing

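Results were recomputed, where the fit allowed it, under 12 alternatives and 2 added after seeing the data (trial 1 arrays alone, and a filter on the arithmetic mean signal). Trial 2 against trial 1 needs the block for trial. It was not recomputed without the block, with an array left out or with trial 1 alone. The trial 1 fit covers only embryos against donor cells, where it repeats the main changes and differs only in their SE and p-values. The members that passed numbered 10 between embryos and donor cells and from 7 to 10 under the alternatives, and 0 for both injected groups against non-injected embryos under all. Between anti-DJ1 and IgG embryos 1 passed instead of 0 with the upper 40% of probe sets tested, and between trials 3 passed under quantile normalization and 0 without the mean-variance trend, instead of 5. There MRE11 newly passed with a common 75th percentile and XRCC5 with the upper 40%, where 6 passed. With the arithmetic mean filter no member's call changed, but 148 and 67 probe sets passed against non-injected embryos (anti-DJ1, IgG) instead of 276 and 182. Other settings gave 0 to 878 and 0 to 726, and 0 to 43 instead of 0 between anti-DJ1 and IgG embryos. Between trials 0 passed without the mean-variance trend instead of 4651. For single members and pathway genes between anti-DJ1 and IgG embryos, 177 values kept direction and side of the threshold outside the fits that leave out an array, and 1 newly passed. Without the replicate block for trial, against non-injected embryos, ATM turned to -0.32 (anti-DJ1) and -0.27 (IgG), XRCC6 to 0.46 and 0.48, and CHEK1 (brighter) to -0.0233 for anti-DJ1 embryos. With a common 75th percentile RPA1 turned to -0.0144 there. Between embryos and donor cells ATM turned to 0.19 and CHEK2 to 0.31 with a common 75th percentile, CHEK2 to 0.45 and XPC to 0.0372 under quantile normalization. Between trials CHEK2 turned to -0.23 under quantile normalization and -0.20 with a common 75th percentile, where RPA1 turned to -0.18.

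Leaving out 1 injected array allows no block, leaves the trials unbalanced and gave these ranges where a sign turned. Between anti-DJ1 and IgG embryos they were -0.44 to 0.33 for ATM, -0.58 to 0.29 for the dimmer CHEK1 probe set, -0.21 to 0.31 for CHEK2, -0.0575 to 0.24 for BRCA1, -0.23 to 0.25 for RAD50, -0.27 to 0.29 for MRE11, -0.46 to 0.0642 for XRCC5, -0.66 to 0.62 for XRCC6, -0.0891 to 0.13 for RPA2, -0.93 to 0.40 for UIMC1, -0.42 to 0.0143 for BRCC3, -0.39 to 0.11 for XRCC4 and -0.88 to 0.34 for FANCG. Against non-injected embryos they were, for anti-DJ1, -0.67 to 0.0276 for ATM, -0.13 to 0.0829 for the brighter CHEK1 probe set and -0.0374 to 0.96 for XRCC6, and for IgG, -0.66 to 0.12 for ATM, -0.16 to 1.12 for XRCC6 and -0.22 to 0.000105 for RPA2. The cause of these changes was not tested, beside the fewer arrays and the missing block.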
